A study of Mus musculus with 12 samples.

Results

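The genes described here encode the matrix metalloproteases (MMPs), the ADAMTS proteases with their protease-free ADAMTS-like relatives, and the tissue inhibitors of metalloproteases (TIMPs). Members were taken as every row of the count table whose mouse symbol is Mmp, Adamts, Adamtsl or Timp followed by a number. They came to 51 of the 52550 genes in the table: 23 MMP, 19 ADAMTS, 5 ADAMTS-like and 4 TIMP genes. Of these, 47 had at least 10 counts in 1 or more libraries. The other 4 were not read: Mmp1a, Mmp7, Mmp20 and Mmp21 had at most 4, 7, 1 and 1 counts in any library. Mmp1b, with at most 21 counts, failed the filter on low counts, so 46 members were tested. The filter keeps a gene that reaches the minimum in as few as 3 libraries, so a member read in a single group could pass through that group alone.

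MMPs are zinc-dependent endopeptidases that are made as inactive precursors and cleave collagens, elastin, basement membrane and other proteases once their prodomain is removed. ADAMTS proteases are secreted and carry thrombospondin repeats. They cleave proteoglycans such as aggrecan and versican, trim procollagens or act on fibrillin-rich fibres, while ADAMTS-like proteins keep the repeats and lack the protease. TIMPs bind the active site of MMPs and of some ADAMTS enzymes, so the turnover of the matrix around intestinal muscle is set by the balance between proteases and inhibitors, which messenger RNA levels do not measure.

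The study grew cells isolated from the muscle of the mouse intestine (genotype WT) for 28 days and sequenced RNA from 3 biologically independent replicates a group. In the group called P plate here, cells grew on a well plate in P medium, a proliferation medium of DMEM with 10% FBS. In the group called M plate, they grew on a well plate in M medium, the labels' differentiation medium, based on Advanced DMEM/Ham's F-12 and listed without serum, with the supplements N2 and B27 (without vitamin A), the BMP antagonist Noggin (100 ng/ml), the Wnt enhancer R-spondin1 (1 µg/ml), Y27632 (10 µM), N-acetylcysteine (1 mM), HEPES and GlutaMAX. In the M scaffold group, cells grew in the same M medium on an electrospun gelatin scaffold, a sheet of fibres made from denatured collagen. The strips were pieces of native intestinal muscle, labelled as a positive control, and their labels carry the tag of day 28 and name the same cell source as the cultures. Both media contained ABAM. Every culture is a mixture of cells from the muscle layers, and in such bulk RNA fewer cells of a type and less RNA per cell cannot be told apart.

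Libraries held 21396485 to 116643512 counts in genes, and 3 counts corresponded to 0.0271 to 0.125 CPM (counts per 1000000, scaled by edgeR's TMM method). The defining markers of smooth muscle were read in every group, with a summed level of 33764 to 35184 CPM in the strips, 5184 to 10798 on the P plate, 2861 to 5139.6 on the M plate and 3369 to 10507 on the M scaffold. All 8 macrophage markers were above 0 in every library, and their sum was 21331, 4008 and 2256 CPM on the P plate, 3964 to 4701 on the M plate, 1806 to 4073 on the M scaffold and 157 to 221 in the strips. The sum of 6 endothelial markers was 13.2 to 26.8 CPM on the P plate, 1446 to 1834 on the M plate, 1406, 928 and 191 on the M scaffold and 105 to 189 in the strips. P plate library 1 stood apart by its macrophage sum and by a mesothelial sum of 282, 2924 and 2226 CPM in the 3 P plate libraries, and M scaffold library 3 stood apart by its endothelial sum. Values below are in the order of replicates 1, 2 and 3. Differences are log2 differences ± SE from edgeR's quasi-likelihood test, with p adjusted by the Benjamini-Hochberg method over all 17700 genes tested and calls made at an adjusted p under 0.05. Where 3 differences from the strips are given, they are culture minus strips in the order P plate, M plate and M scaffold.

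The secreted MMPs that are near zero in native muscle were present in each culture. The stromelysins Mmp3 and Mmp10, the metalloelastase Mmp12 and the collagenase Mmp13 ran from 0.974 CPM (Mmp10) to 505 CPM (Mmp3) in culture and reached at most 0.459 CPM in the strips. In M medium on plates these secreted enzymes were lower than in P medium, except Mmp3, which did not pass, and all 3 calls were lost in a fit of only the 6 libraries compared. Adamtsl2, a fibrillin-binding protein, had the largest rise between media of any member. On the gelatin scaffold Mmp13 and the membrane-type Mmp15 were higher than on the plate and Adamtsl2 was lower. The Mmp13 call was lost without M plate library 1, 2 or 3 or M scaffold library 3. The Mmp15 call was lost without M plate library 2, and no single omission ended that of Adamtsl2. Timp1 was highest on the P plate, and Timp2 made up most of the TIMP level in the strips.

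M plate against P plate asks what the medium changed. Adamtsl2 was higher in M medium by 7.87 ± 0.52 (adjusted p = 1.37e-05), the versican- and aggrecan-cleaving Adamts15 by 4.51 ± 0.41 (adjusted p = 6.08e-05) and the membrane-type Mmp15 by 3.80 ± 0.27 (adjusted p = 2.46e-05). The ADAMTS protease Adamts12 was lower, with -1.33 ± 0.26 (adjusted p = 0.0048), as was the inhibitor Timp1, with -2.34 ± 0.48 (adjusted p = 0.00564). Of the 46 members tested, 19 were higher on the M plate, 8 were lower and 19 did not pass, against 14.3% of all genes tested called higher and 10.6% called lower. The median log2 difference of the members was 0.32 and that of all genes tested was -0.0044. The groups' libraries did not overlap for 31 members, against 41.9% of all genes. Only 3 members were lower without M plate library 1 and 4 without M plate library 2. Over all genes those fits called 812 and 879 lower, against 1868 with all libraries. By family, 8 of 19 ADAMTS genes were higher and 2 lower, 4 of 5 ADAMTS-like genes were higher, 6 of 18 MMP genes were higher and 5 lower, and among the 4 TIMP genes 1 was higher and 1 lower.

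M scaffold against M plate asks what the gelatin scaffold changed within M medium. Mmp13 was higher on the scaffold by 4.27 ± 0.80 (adjusted p = 0.0286) and Mmp15 by 1.89 ± 0.24 (adjusted p = 0.00896), and Adamtsl2 was lower, with -3.64 ± 0.41 (adjusted p = 0.00845). The comparison called 2 members higher and 1 lower, and 43 did not pass, against 1.53% of all genes called higher and 1.64% called lower. The members' median difference was 0.40 and that of all genes 0.0098. Libraries of the groups did not overlap for 22 of 46 members, against 33.3% of all genes. In these groups the replicate numbers were taken to pair the samples, since same-numbered libraries deviated together from their group means (r 0.196 to 0.304). The labels state no shared source, so this pairing is inferred from the same data. In a fit of these 6 libraries with replicate number as a block, 10 of 45 members were higher and 4 lower, against 4.81% and 5.69% of the 16354 genes tested. With the block in the fit of all 12 libraries, 3 were higher (Mmp3, Mmp13 and Mmp15) and 1 lower (Adamtsl2), against 1.25% and 0.955% of all genes. The other members called with the block in 6 libraries did not pass with it in all 12. The counts in this comparison also turned on single libraries: 1 member was higher without M plate library 1, 0 without M plate library 2, in a fit by edgeR that called 7 genes higher and 11 lower in all, and 4 without M scaffold library 1. Over all genes, the fits without M plate library 1 and without M scaffold library 1 called 86 and 177 higher, against 271 with all libraries.

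**Figure D1:**
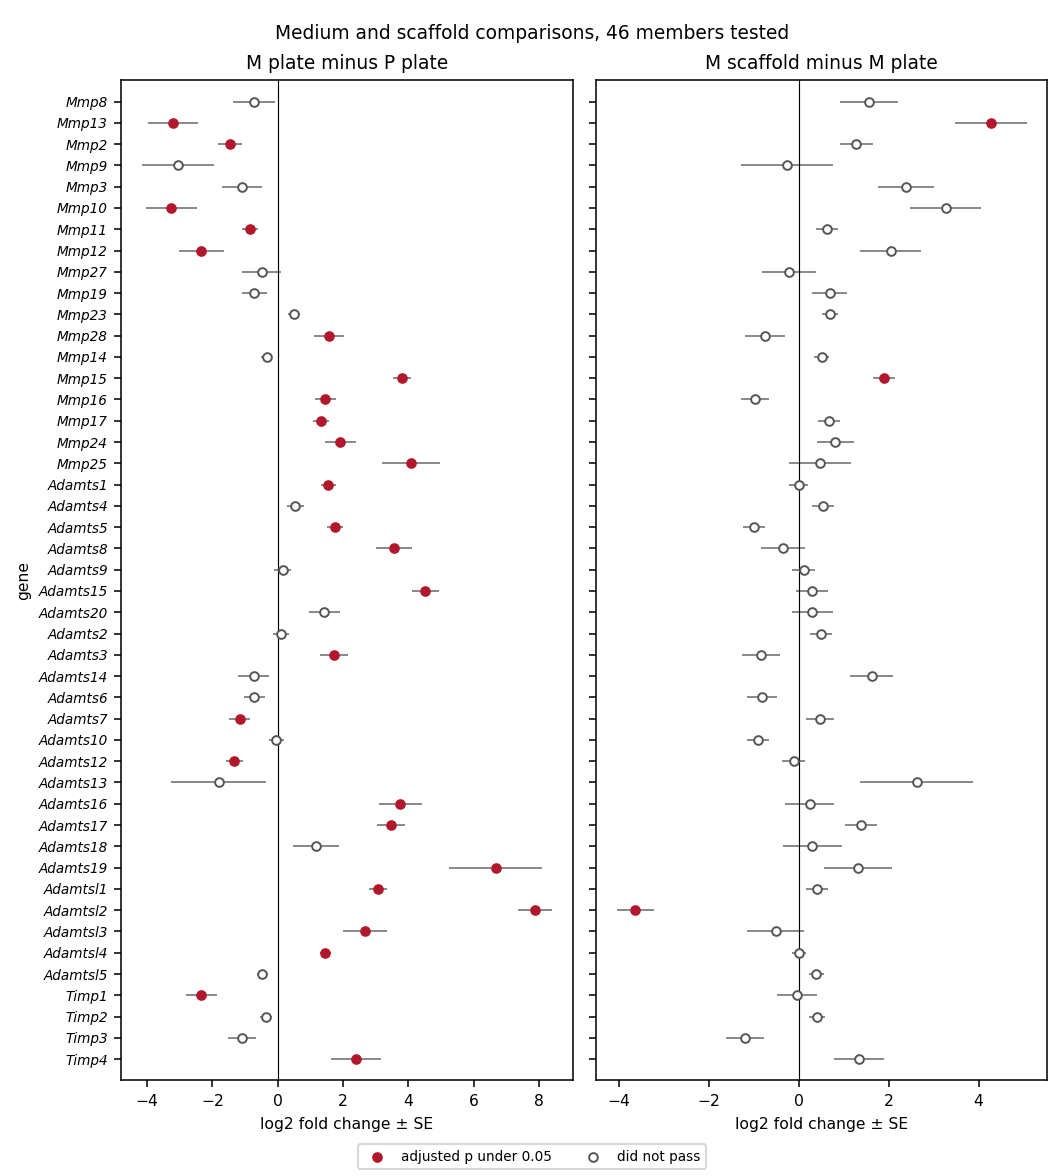
Log2 differences of the 46 tested members for M plate minus P plate and for M scaffold minus M plate, with bars of 1 SE. Filled red points passed an adjusted p under 0.05 in edgeR's quasi-likelihood test over all 12 libraries, which is 27 members for the medium and 3 for the scaffold (Mmp13, Mmp15 and Adamtsl2).

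The 3 comparisons of a culture with the strips share the same 3 strip libraries, so their values are given side by side and are not independent. The stromelysin Mmp3 stood above the strips in each culture (9.38 ± 0.95, 8.29 ± 0.93 and 10.67 ± 0.98, adjusted p = 1.64e-05, 6.07e-05 and 3.48e-05), and Adamts17, of the fibrillin-linked branch, below them (-7.73 ± 0.48, -4.27 ± 0.38 and -2.88 ± 0.36, adjusted p = 9.46e-07, 2.04e-05 and 0.000154). On the P plate 22 members were higher than in the strips and 16 lower (all genes: 30.5% higher and 32.7% lower). On the M plate 25 were higher and 9 lower (all genes: 26.5% and 28.4%). On the M scaffold 28 were higher and 9 lower (all genes: 24.5% and 27.6%). The members' median differences were 0.39, 1.12 and 1.32, beside -0.028, -0.0072 and -0.023 over all genes. Libraries of culture and strips did not overlap for 39, 38 and 42 of the 46 members, against 67.8%, 73.2% and 65.3% of all genes. Of the 18 MMP genes, 11, 11 and 12 were higher and 5, 3 and 2 lower. With scaling by library size alone the all-gene medians moved to -0.30, -0.23 and -0.26, and the members called were 20 higher and 16 lower, 25 and 9, and 24 and 10. Over all 17700 genes that scaling called 3669 higher and 7304 lower, 3327 and 6492, and 2919 and 6551.

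**Figure D2:**
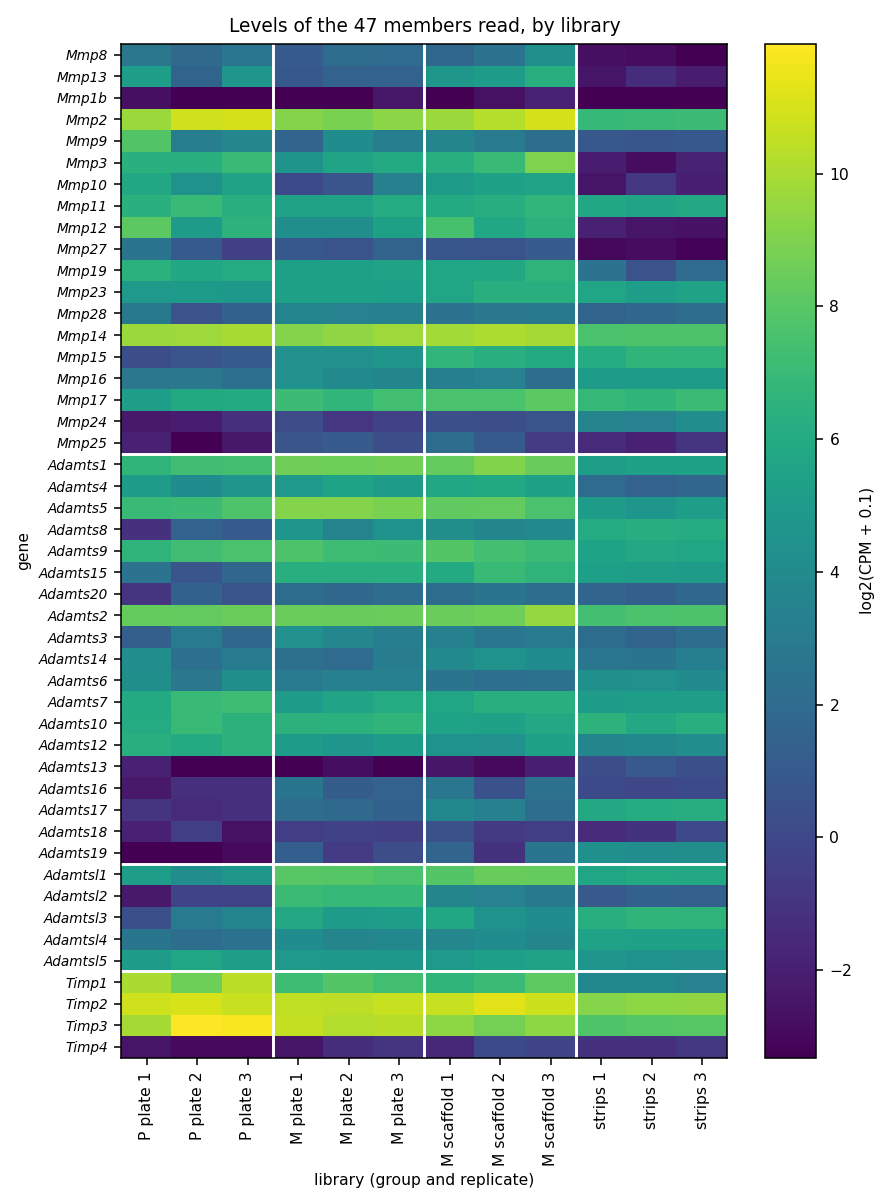
Levels of the 47 members read, as log2(CPM + 0.1), with genes in rows by family and the 12 libraries in columns by group. Compared with the cultures, the strips are lower for Mmp3, Mmp8, Mmp10, Mmp12, Mmp13 and Mmp27, all of 1 cluster on chromosome 9. They are also lower for genes outside that cluster, such as Mmp2, Mmp14, Mmp19 and Timp1, and higher for Adamts8, Adamts17, Adamts19 and Adamtsl4.

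In all, 10 of the MMP genes lie in a single cluster on mouse chromosome 9 (build GRCm38), between positions 7272514 and 7699585, a span of 427.1 kb that holds no other protein-coding gene. In order they are Mmp13, Mmp12, Mmp1b, Mmp3, Mmp1a, Mmp10, Mmp8, Mmp27, Mmp20 and Mmp7, and 6 of them were tested. The 6 tested, Mmp3, Mmp10, Mmp12, Mmp13, Mmp8 and Mmp27, all stood higher in each culture than in the strips. The 100 bases before their RefSeq transcript starts (GRCm38.p6, all on the plus strand) are shown here. Capitals mark TGANTCA, a pattern that takes in the letters bound by AP-1 factors but is wider than them, and TATAAA, the letters of the core of a TATA box. The windows are Mmp3 at chr9:7445722-7445821, Mmp10 at chr9:7502242-7502341, Mmp12 at chr9:7347274-7347373 (the second of 2 starts listed for this gene), Mmp13 at chr9:7272414-7272513, Mmp8 at chr9:7558329-7558428 and Mmp27 at chr9:7571296-7571395.
Mmp3: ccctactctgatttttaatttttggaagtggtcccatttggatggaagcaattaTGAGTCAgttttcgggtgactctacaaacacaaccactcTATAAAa
Mmp10: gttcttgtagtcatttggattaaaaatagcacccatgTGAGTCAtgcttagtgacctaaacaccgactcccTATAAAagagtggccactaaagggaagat
Mmp12: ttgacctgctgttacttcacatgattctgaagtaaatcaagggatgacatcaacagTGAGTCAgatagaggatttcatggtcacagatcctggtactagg
Mmp13: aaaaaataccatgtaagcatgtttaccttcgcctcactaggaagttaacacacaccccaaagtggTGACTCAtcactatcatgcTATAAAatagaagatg
Mmp8: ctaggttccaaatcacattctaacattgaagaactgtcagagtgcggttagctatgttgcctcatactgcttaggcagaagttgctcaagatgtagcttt
Mmp27: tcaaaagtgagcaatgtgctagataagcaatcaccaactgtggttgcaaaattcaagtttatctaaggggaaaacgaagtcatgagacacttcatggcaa

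TGANTCA, which reads the same on both strands apart from its middle base, was searched in the 250 bases before each RefSeq start. It was found in 2217 of 32851 promoters of the table (6.75%) and in 8 of the 36 members that have a promoter there. The 8 are Mmp3, Mmp7, Mmp10, Mmp12, Mmp13, Mmp20, Mmp1a and Mmp1b, all of them in the chromosome 9 cluster. The match read TGAATCA in Mmp20, TGACTCA in Mmp13 and TGAGTCA in the others. Counted from the first base of the match to the start, it lay 46 bases before Mmp3, 63 before Mmp10, 44 before the second start of Mmp12 and 35 before Mmp13. The cluster genes Mmp8 and Mmp27 have no match in this window. Nor does the first start listed for Mmp12, which lies nearer the start of the gene and whose 100 bases are at chr9:7344297-7344396. TATAAA on either strand was found in 12.4% of all promoters and in 10 members, among them Mmp3, Mmp10 and Mmp13 but not Mmp12. Its first base lay 7 bases before the start of Mmp3, 29 before Mmp10 and 16 before Mmp13. These matches describe letters only, and binding was not measured. Mmp8 and Mmp27, without the TGANTCA letters, also stood higher in each culture than in the strips, and Mmp1a, Mmp1b, Mmp7 and Mmp20, with them, had at most 21 counts in any library.

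Mmp13, collagenase-3, is the main enzyme of rodents that opens the triple helix of fibrillar collagen (ENSMUSG00000050578, chr9:7272514-7283331, plus strand). Its level was 37, 2.98 and 25.8 CPM on the P plate and 1.75, 2.72 and 2.64 on the M plate. Mmp13 was at 26.9, 32.7 and 78.2 on the M scaffold and 0.0821, 0.292 and 0.128 in the strips. P plate library 2 lay just above the M plate range, while all M scaffold libraries lay above all M plate libraries and all strips lay below every culture. The M plate minus P plate difference was -3.21 ± 0.77 (adjusted p = 0.0126). That call was lost without M plate library 1 (log2 difference -3.04, adjusted p of 0.0579), with limma-voom (-2.61, adjusted p of 0.108), and in a fit of only the 6 libraries compared (-3.21, adjusted p of 0.0537). It was -2.59 (adjusted p of 0.0251) without P plate library 1. The M scaffold minus M plate difference was 4.27 ± 0.80 (adjusted p = 0.0286), and 4.18 ± 0.30 (adjusted p = 0.0164) with the replicate block in the 6 libraries. Without the block the scaffold call was lost without M plate library 1, M plate library 2, M plate library 3 or M scaffold library 3 (log2 difference 3.65 to 4.39, adjusted p 0.0608 to 0.132). Against the strips the differences were 7.18 ± 1.01, 3.97 ± 0.97 and 8.24 ± 1.03 (adjusted p = 0.00014, 0.00551 and 0.000157). The M plate value did not pass with limma-voom (3.98, adjusted p of 0.109). The first of these was 6.54 without P plate library 1 and the last 7.62 without M scaffold library 3.

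Mmp8, the collagenase first found in neutrophils, was at 6.57, 3.81 and 6.31 CPM on the P plate and 1.95, 4.16 and 3.93 on the M plate. Mmp8 was at 3.53, 5.56 and 20.4 on the M scaffold and 0.0548, 0.0417 and 0 in the strips. Its 3 strip libraries held 3 counts in all. From summed counts the ratio of culture to strips was 274 on the P plate (95% exact interval 93.2 to 1331), 171 on the M plate (58.2 to 832) and 713 on the M scaffold (244 to 3458), where intervals cover counting error only. Neither the medium nor the scaffold comparison called Mmp8, with differences of -0.73 ± 0.63 (adjusted p = 0.436) and 1.56 ± 0.64 (adjusted p = 0.193). Of 6 neutrophil markers none passed the filter, and their sum was at most 3.07 CPM in any library. That highest sum was in P plate library 1, where S100a8 was at 2.96 CPM, while S100a9 had no counts in any culture library. The part of neutrophils in the Mmp8 levels was not tested. Mmp27 was at 0.638 to 5.83 CPM in the cultures and 0.0116 to 0.0417 CPM in the strips, with 3 counts in the strips in all and ratios of 144 (48.9 to 703), 104 (35.2 to 507) and 90.2 (30.6 to 439.9).

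The stromelysin Mmp3 cleaves proteoglycans, fibronectin and basement membrane proteins and activates other pro-MMPs (ENSMUSG00000043613, chr9:7445822-7455975, plus strand). Levels of Mmp3 were 83.5, 78.8 and 129 CPM on the P plate and 23.9, 48.5 and 64.5 on the M plate. Mmp3 was at 77.7, 132 and 505 on the M scaffold and 0.137, 0.0417 and 0.186 in the strips. Strips lay far below every culture library, the P and M plate ranges were separate but close, and M scaffold library 3 stood above all others. Against the strips Mmp3 differed by 9.38 ± 0.95, 8.29 ± 0.93 and 10.67 ± 0.98 (adjusted p = 1.64e-05, 6.07e-05 and 3.48e-05). The last of these was 9.49 without M scaffold library 3. The medium difference was -1.09 ± 0.61 (adjusted p = 0.219). On the scaffold the difference was 2.38 ± 0.63 (adjusted p = 0.0668). This did not pass. It passed with the replicate block (2.05 ± 0.33, adjusted p = 0.0324 in 6 libraries, and 2.10 ± 0.39, adjusted p = 0.0412 in all 12). It also passed with DESeq2 (2.40, adjusted p = 0.00424) and without M scaffold library 1 (2.82, adjusted p = 0.043).

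Mmp10, stromelysin-2, has a like set of substrates (chr9:7502352-7510240, plus strand). It stood at 54.6, 22.3 and 45.2 CPM on the P plate and 0.974, 1.52 and 10.05 on the M plate. Mmp10 was at 31.7, 42.9 and 49 on the M scaffold and 0.0821, 0.459 and 0.151 in the strips. M plate libraries 1 and 2 were low and library 3 was higher, yet all 3 lay below every P plate and M scaffold library, and the strips lay below all cultures. The difference of M plate from P plate was -3.26 ± 0.79 (adjusted p = 0.0134). It was lost in a fit of only the 6 libraries compared (-3.26, adjusted p of 0.0673) and was -5.02 without M plate library 3. On the scaffold the difference of 3.27 ± 0.79 (adjusted p = 0.0528) did not pass. It passed with the replicate block in 6 libraries (3.91 ± 0.63, adjusted p = 0.0323), with limma-voom (3.84, adjusted p = 0.0176), with DESeq2 (3.32, adjusted p = 0.000813) and without M plate library 3 (5.04, adjusted p = 0.0316). It did not pass with the block in all 12 (3.67 ± 0.79, adjusted p = 0.0535). Against the strips it was 7.67 ± 1.04, 4.41 ± 0.98 and 7.68 ± 1.04 (adjusted p = 0.000116, 0.00327 and 0.000249), and the M plate value was 2.64 without M plate library 3. Without strips library 2 they were 8.29, 5.02 and 8.31.

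Mmp11, stromelysin-3, is activated inside the cell by furin and cleaves serpins rather than major matrix proteins. It was at 84.2, 126 and 75.8 CPM on the P plate and 45, 45 and 67.3 on the M plate. Mmp11 was at 64.9, 72.8 and 106 on the M scaffold and 56.2, 47.6 and 58.8 in the strips. The M plate and strip ranges overlapped. M plate minus P plate was -0.86 ± 0.25 (adjusted p = 0.0279), but this was lost without M plate library 1, P plate library 2 or M plate library 2 (log2 difference -0.62 to -0.77, adjusted p 0.0833 to 0.105), and in a fit of only the 6 libraries compared (-0.87, adjusted p of 0.0702). On the scaffold it was 0.63 ± 0.08 higher than on the plate with the replicate block in 6 libraries (adjusted p = 0.0244), and 0.63 ± 0.25 (adjusted p = 0.174) without it. The block in all 12 gave 0.62 ± 0.24, adjusted p = 0.191. Against the strips only the P plate passed, by 0.82 ± 0.25 (adjusted p = 0.0142). This was lost without P plate library 2 or strips library 2 (log2 difference 0.56 to 0.71, adjusted p 0.0572 to 0.0635), and with scaling by library size alone (0.56, adjusted p of 0.0817). Its exons overlap Chchd10 on the opposite strand over 5.58% of their bases. Where counting ignores strand the reads of such pairs cannot be told apart.

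Mmp12 is the macrophage metalloelastase, which cleaves elastin and many other matrix proteins (ENSMUSG00000049723, chr9:7344381-7369499, plus strand). Its libraries read 276, 35 and 93.5 CPM on the P plate and 19.2, 19.1 and 41.2 on the M plate. Mmp12 was at 182, 55.7 and 91.6 on the M scaffold and 0.164, 0.0834 and 0.0696 in the strips. P plate library 1 was highest, the P and M plate ranges overlapped, and the strips lay below every culture library. The medium difference was -2.35 ± 0.69 (adjusted p = 0.0313), but this was lost without P plate library 1, M plate library 1 or M plate library 2 (log2 difference -1.27 to -2.17, adjusted p 0.0993 to 0.111), with limma-voom (-1.91, adjusted p of 0.0666), and in a fit of only the 6 libraries compared (-2.35, adjusted p of 0.0921). The scaffold difference was 2.05 ± 0.68 (adjusted p = 0.121), which passed with DESeq2 (2.06, adjusted p = 0.0311) and not with the replicate block in 6 libraries (1.97, adjusted p = 0.0546). Against the strips the differences were 10.39 ± 1.09, 8.04 ± 1.04 and 10.09 ± 1.08 (adjusted p = 2.06e-05, 0.000141 and 7.05e-05), the first of them 9.29 without P plate library 1. All 8 macrophage markers were higher on the P plate and on the M plate than in the strips and 7 of 8 on the M scaffold. Over all genes tested, 30.5%, 26.5% and 24.5% were called higher in these comparisons. P plate library 1, the highest for Mmp12, had a macrophage sum of 21331 CPM. On the M scaffold library 1 had 182 CPM of Mmp12 with a macrophage sum of 2257 CPM, and M plate library 1 had 19.2 CPM with a sum of 3964 CPM. The part of macrophages in the Mmp12 levels was not tested.

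**Figure D3:**
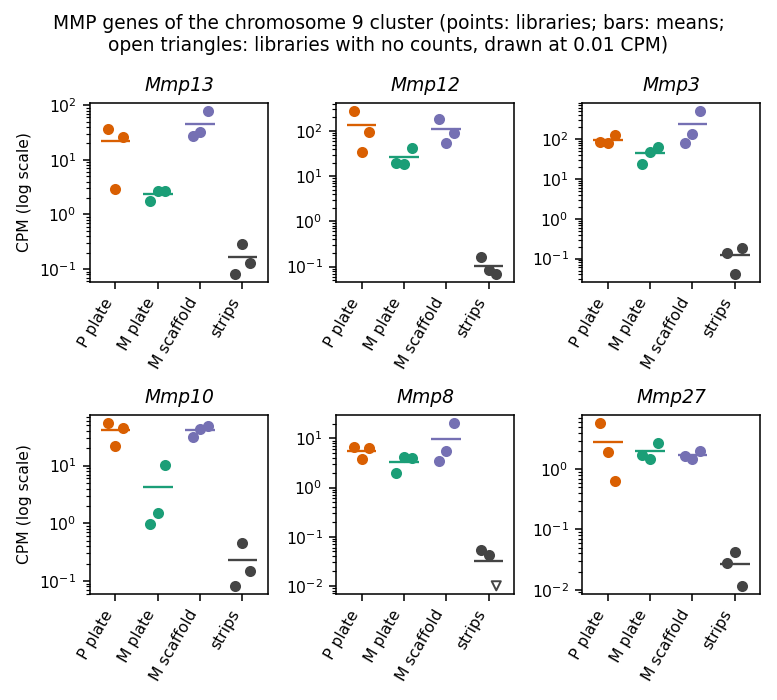
CPM on a log axis of the 6 tested MMP genes of the chromosome 9 cluster, 1 point a library and a bar at each group's mean, with the Mmp8 strip library that had no counts drawn as an open triangle at 0.01 CPM. In each panel the 3 strip libraries lie below all 9 culture libraries.

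The gelatinases cleave denatured collagen, the material of the scaffold, and basement membrane collagen. Mmp2, gelatinase A, was the MMP gene with the highest level per kb of exon in every group, with means of 455, 166, 403 and 39 CPM per kb on the P plate, M plate, M scaffold and in the strips. Per library it was at 802, 1817 and 1981 CPM on the P plate and 566, 477 and 632 on the M plate. Mmp2 was at 816, 1235 and 2020.1 on the M scaffold and 122, 127 and 145 in the strips. All M plate libraries lay below all P plate and M scaffold libraries, and the strips below all cultures. The medium difference was -1.46 ± 0.37 (adjusted p = 0.0169). The call was lost without M plate library 1, M plate library 2 or P plate library 3 (log2 difference -1.23 to -1.47, adjusted p 0.059 to 0.0677). On the scaffold Mmp2 differed from the M plate by 1.28 ± 0.37 (adjusted p = 0.0822). It passed there with the replicate block in 6 libraries (1.21 ± 0.25, adjusted p = 0.0492) and with DESeq2 (1.30, adjusted p = 0.00882), and not with the block in all 12 (1.18 ± 0.29, adjusted p = 0.0716). Against the strips the differences were 3.54 ± 0.40, 2.09 ± 0.38 and 3.37 ± 0.40 (adjusted p = 3.38e-05, 0.001 and 0.000114).

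Mmp9, gelatinase B, is made by macrophages and neutrophils among other cells, and it was at 223, 9.35 and 13.3 CPM on the P plate and 3.12, 17.1 and 9.22 on the M plate. Mmp9 was at 12.5, 7.67 and 4.55 on the M scaffold and 1.78, 1.58 and 1.75 in the strips. P plate library 1, at 223 CPM, was the single high library, and the other culture libraries overlapped between groups. Mmp9 was higher than in the strips on the P plate (5.58 ± 1.25, adjusted p = 0.00283), a difference of 2.68 (adjusted p = 0.00304) without P plate library 1. It did not pass on the M plate (2.52 ± 1.12, adjusted p = 0.0779) or the M scaffold (2.26 ± 1.11, adjusted p = 0.112), though the ranges did not overlap there. The medium difference of -3.06 ± 1.10 (adjusted p = 0.066) did not pass in edgeR. It passed with DESeq2 (-3.10, adjusted p = 0.00635), without P plate library 2 (-3.59, adjusted p = 0.0246) and without P plate library 3 (-3.56, adjusted p = 0.0437). Without P plate library 1 it was -0.20 (adjusted p = 0.821). The high library is also the one with the highest macrophage sum, whose part was not tested.

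Membrane-type MMPs act at the cell surface, and Mmp14 (MT1-MMP), the collagenase that also activates pro-Mmp2 together with Timp2, led them. Its level was 793, 858 and 1002 CPM on the P plate and 564, 693 and 839 on the M plate. Mmp14 was at 926, 1088 and 963 on the M scaffold and 189, 208 and 205 in the strips. Its group means were 148, 117, 167 and 33.6 CPM per kb in the order P plate, M plate, M scaffold, strips. Strips were lower than every culture library, by 2.14 ± 0.17, 1.80 ± 0.17 and 2.31 ± 0.17 (adjusted p = 3.43e-06, 2.31e-05 and 1.14e-05). The medium and scaffold differences of -0.34 ± 0.16 (adjusted p = 0.15) and 0.51 ± 0.16 (adjusted p = 0.108) did not pass, and the second passed with DESeq2 (0.52, adjusted p = 0.0132). Mmp2 and Mmp14 together made up 72.8% ± 13.3 of the summed MMP level per kb on the P plate, 71.0% ± 1.7 on the M plate, 64.6% ± 4.8 on the M scaffold and 47% ± 2.0 in the strips (SD, n = 3).

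Mmp15 (MT2-MMP) is a membrane-type enzyme that also cleaves matrix proteins at the cell surface (ENSMUSG00000031790, chr8:95352268-95375080, plus strand). It was at 1.15, 1.54 and 2.1 CPM on the P plate and 21, 20.8 and 24.8 on the M plate. Mmp15 was at 107, 75.6 and 64.2 on the M scaffold and 69.1, 100.1 and 99.2 in the strips. P plate libraries were all near 1 to 2 CPM, the M plate was intermediate, and the M scaffold and strip ranges overlapped. M plate exceeded P plate by 3.80 ± 0.27 (adjusted p = 2.46e-05). M scaffold exceeded M plate by 1.89 ± 0.24 (adjusted p = 0.00896). That call was lost without M plate library 2 (log2 difference 1.86, adjusted p of 0.0533) and kept with the replicate block in 6 libraries (1.87 ± 0.20, adjusted p = 0.0208). Against the strips Mmp15 differed by -5.81 ± 0.30, -2.01 ± 0.24 and -0.12 ± 0.23 (adjusted p = 4.8e-07, 9.58e-05 and 0.692). The M scaffold difference did not pass.

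Mmp16 and Mmp24 (MT3-MMP and MT5-MMP) were also lowest on the P plate by group mean, and highest in native muscle. Mmp16 was at 6.54, 6.58 and 4.66 CPM on the P plate and 21, 14.9 and 12.9 on the M plate. Mmp16 was at 9.71, 10.9 and 4.29 on the M scaffold and 32.8, 33.2 and 31.3 in the strips. The M plate was higher than the P plate by 1.46 ± 0.32 (adjusted p = 0.00798). The strips were above each culture (-2.45 ± 0.33, -1.0 ± 0.31 and -1.98 ± 0.32, adjusted p = 9.79e-05, 0.0189 and 0.000634). The M plate call against the strips was lost without M plate library 2 or M plate library 3 (log2 difference -0.85 to -0.95, adjusted p 0.06 to 0.0739). On the scaffold it was -0.98 ± 0.31 (adjusted p = 0.107), which passed with DESeq2 (-0.97, adjusted p = 0.0391) and limma-voom (-1.27, adjusted p = 0.0425). Mmp24, a membrane-type enzyme best known from neurons, was at 0.109, 0.123 and 0.351 CPM on the P plate and 1.09, 0.431 and 0.676 on the M plate. Mmp24 was at 1.23, 1.15 and 1.45 on the M scaffold and 11.3, 10.7 and 17.6 in the strips. Each culture lay below the strips (-6.09 ± 0.50, -4.18 ± 0.44 and -3.36 ± 0.42, adjusted p = 4.42e-06, 4.26e-05 and 0.000146), and the M plate lay above the P plate (1.91 ± 0.48, adjusted p = 0.0158). The latter call was lost without M plate library 1 (log2 difference 1.53, adjusted p of 0.0612), and in a fit of only the 6 libraries compared (1.91, adjusted p of 0.0742). It was 2.62 without P plate library 3, where the P plate lay at -6.84 from the strips. Enteric neuron markers summed to 24.6 to 60.5 CPM on the P plate, 69.3 to 110.2 on the M plate, 203 to 267 on the M scaffold and 615 to 863 in the strips. Their part in the Mmp24 levels was not tested. The exons of Mmp24 overlap BC029722 on the opposite strand over 13.6% of their bases.

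Mmp17 and Mmp25 (MT4-MMP and MT6-MMP) are held in the membrane by a lipid anchor. Mmp17 was at 36.7, 62.6 and 64.6 CPM on the P plate and 145, 105 and 161 on the M plate. Mmp17 was at 193, 190.4 and 275 on the M scaffold and 116, 102 and 134 in the strips. M plate libraries lay above all P plate libraries (1.33 ± 0.25, adjusted p = 0.00346). The scaffold difference of 0.68 ± 0.24 (adjusted p = 0.146) passed with the replicate block in 6 libraries (0.69 ± 0.12, adjusted p = 0.0359) and not in all 12 (0.67 ± 0.20, adjusted p = 0.11). Against the strips Mmp17 was lower on the P plate and higher on the M scaffold, and did not pass on the M plate (-1.11 ± 0.25, 0.22 ± 0.24 and 0.90 ± 0.24, adjusted p = 0.00264, 0.465 and 0.0108). Mmp25 reached at most 4.06 CPM in any library and was higher in M medium (4.08 ± 0.90, adjusted p = 0.00862). Of the 6 membrane-type genes, 5 were therefore higher on the M plate than on the P plate, against 14.3% of all genes, and Mmp14 did not pass.

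Among the remaining MMPs, Mmp19 cleaves basement membrane components and was at 85.6, 58 and 66.9 CPM on the P plate and 40.9, 41.8 and 45.2 on the M plate. Mmp19 was at 52, 55.3 and 98.6 on the M scaffold and 5.59, 1.38 and 3.92 in the strips. All cultures lay above the strips (4.25 ± 0.44, 3.53 ± 0.43 and 4.22 ± 0.44, adjusted p = 2e-05, 9.92e-05 and 6.28e-05), and neither medium (-0.72 ± 0.39, adjusted p = 0.202) nor scaffold (0.69 ± 0.39, adjusted p = 0.339) passed. Its exons share 22.33% of their bases with Tmem198b on the opposite strand. Mmp23, an MMP with a cysteine array in place of the usual haemopexin domain, was at 28.9, 32 and 27.9 CPM on the P plate and 42.5, 42.9 and 39.98 on the M plate. Mmp23 was at 49.8, 76.8 and 76.2 on the M scaffold and 51.1, 35.5 and 44 in the strips. It differed from the strips by -0.56 ± 0.18, -0.06 ± 0.17 and 0.63 ± 0.17 (adjusted p = 0.0172, 0.795 and 0.0115). The P plate call was lost without strips library 1 (log2 difference -0.45, adjusted p of 0.0661). The M scaffold call was lost without strips library 2 (log2 difference 0.49, adjusted p of 0.052), and with scaling by library size alone (0.39, adjusted p of 0.0819). Mmp28 (epilysin) was at 7.17, 1.38 and 2.58 CPM on the P plate and 11.9, 10.6 and 10.5 on the M plate. Mmp28 was at 5.59, 6.86 and 7.22 on the M scaffold and 2.9, 3.42 and 4.23 in the strips. It was higher on the M plate than on the P plate (1.57 ± 0.46, adjusted p = 0.0323) and than in the strips (1.64 ± 0.46, adjusted p = 0.0119). The medium call was lost without M plate library 1, M plate library 2, P plate library 3 or M plate library 3 (log2 difference 1.37 to 1.6, adjusted p 0.0653 to 0.103), and in a fit of only the 6 libraries compared (1.57, adjusted p of 0.118). It was 2.48 without P plate library 1, the one P plate library above the strips. The call against the strips was lost without strips library 1 (log2 difference 1.49, adjusted p of 0.0505). Mmp28 shares 12.03% of its exon bases with 1700020L24Rik on the opposite strand.

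Of the 7 proteoglycan-cleaving ADAMTS genes, 4 were higher on the M plate than on the P plate, against 14.3% of all genes, and 3 did not pass. Adamts1 and Adamts5, which cleave versican and aggrecan, were highest in M medium. Adamts1 was at 102, 153 and 159 CPM on the P plate and 399, 388 and 423 on the M plate. Adamts1 was at 329.6, 542 and 342 on the M scaffold and 36.2, 42.3 and 42.1 in the strips. All M plate libraries lay above all P plate libraries (1.55 ± 0.22, adjusted p = 0.000651). The difference between scaffold and plate did not pass (0.0 ± 0.21, adjusted p = 0.994). Adamts5 was at 124, 141 and 211 CPM on the P plate and 566, 567 and 469 on the M plate. Adamts5 was at 294, 317 and 191 on the M scaffold and 33.5, 25.9 and 38.1 in the strips. The M plate range lay above both other cultures, by 1.75 ± 0.25 (adjusted p = 0.000712) from the P plate, and the scaffold difference of -1.0 ± 0.24 (adjusted p = 0.0547) did not pass. That difference passed with the replicate block in 6 libraries (-1.02 ± 0.13, adjusted p = 0.0237), with DESeq2 (-0.99, adjusted p = 0.00351), with limma-voom (-0.99, adjusted p = 0.0488) and in a fit of only the 6 libraries compared (-0.99, adjusted p = 0.0446). The block in all 12 gave -1.0 ± 0.27, adjusted p = 0.0875. Both genes were higher in each culture than in the strips, Adamts1 by 1.78 ± 0.22, 3.33 ± 0.23 and 3.33 ± 0.23 (adjusted p = 6.02e-05, 6.41e-06 and 1.02e-05) and Adamts5 by 2.29 ± 0.25, 4.04 ± 0.27 and 3.04 ± 0.26 (adjusted p = 3.02e-05, 5.95e-06 and 2.53e-05).

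Adamts4, the other classical aggrecanase, was low in native muscle and higher in each culture, at 34.3, 17.2 and 24.8 CPM on the P plate and 31.3, 45.7 and 33.5 on the M plate. Adamts4 was at 55.4, 61.9 and 43.5 on the M scaffold and 4.02, 2.71 and 3.24 in the strips. Its differences from the strips were 2.93 ± 0.28, 3.47 ± 0.28 and 4.01 ± 0.29 (adjusted p = 1.08e-05, 1.29e-05 and 1.11e-05), and the ranges of cultures and strips did not overlap. Between media it did not pass (0.53 ± 0.26, adjusted p = 0.153), and passed without P plate library 1 (0.81, adjusted p = 0.0287). On the scaffold it was 0.56 ± 0.12 higher than on the plate with the replicate block in 6 libraries (adjusted p = 0.0498) and 0.54 ± 0.25 (adjusted p = 0.253) without it. With the block in all 12 it did not pass (0.53 ± 0.26, adjusted p = 0.291). Adamts9 was at 99.2, 155 and 191 CPM on the P plate and 204, 145 and 143 on the M plate. Adamts9 was at 229, 168 and 134 on the M scaffold and 45.6, 59.3 and 50.05 in the strips. It was higher in each culture than in the strips (1.52 ± 0.27, 1.67 ± 0.27 and 1.78 ± 0.27, adjusted p = 0.000596, 0.000485 and 0.000436), and passed in neither the medium nor the scaffold comparison.

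Adamts15 and Adamts8 also cleave proteoglycans, and both were lowest on the P plate. Adamts15 (chr9:30899155-30922452, minus strand) was at 5.45, 1.54 and 3.22 CPM on the P plate and 76.5, 76.5 and 81.2 on the M plate. Adamts15 was at 63.8, 127 and 96.1 on the M scaffold and 39.6, 38.5 and 35.3 in the strips. It was higher on the M plate than on the P plate by 4.51 ± 0.41 (adjusted p = 6.08e-05), the ranges being far apart, and scaffold and plate overlapped (0.29 ± 0.35, adjusted p = 0.671). From the strips it differed by -3.47 ± 0.39, 1.05 ± 0.35 and 1.34 ± 0.35 (adjusted p = 3.3e-05, 0.0269 and 0.00923), below them on the P plate and above them in M medium. The M plate call was lost without any one of the 6 libraries compared (0.97 to 1.05, adjusted p 0.057 to 0.0858). Adamts8 was at 0.356, 2.64 and 2.01 CPM on the P plate and 26.3, 11.1 and 21.7 on the M plate. Adamts8 was at 18.8, 12.6 and 14.9 on the M scaffold and 67.7, 74.8 and 71.4 in the strips. It was higher on the M plate than on the P plate (3.57 ± 0.55, adjusted p = 0.00122) and lower than the strips in each culture (-5.42 ± 0.60, -1.86 ± 0.50 and -2.21 ± 0.51, adjusted p = 2.81e-05, 0.00928 and 0.00444). Adamts8 shares 10.6% of its exon bases with the antisense gene Gm29724. Adamts20 reached at most 5.87 CPM in any library and was called in no comparison.

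**Figure D4:**
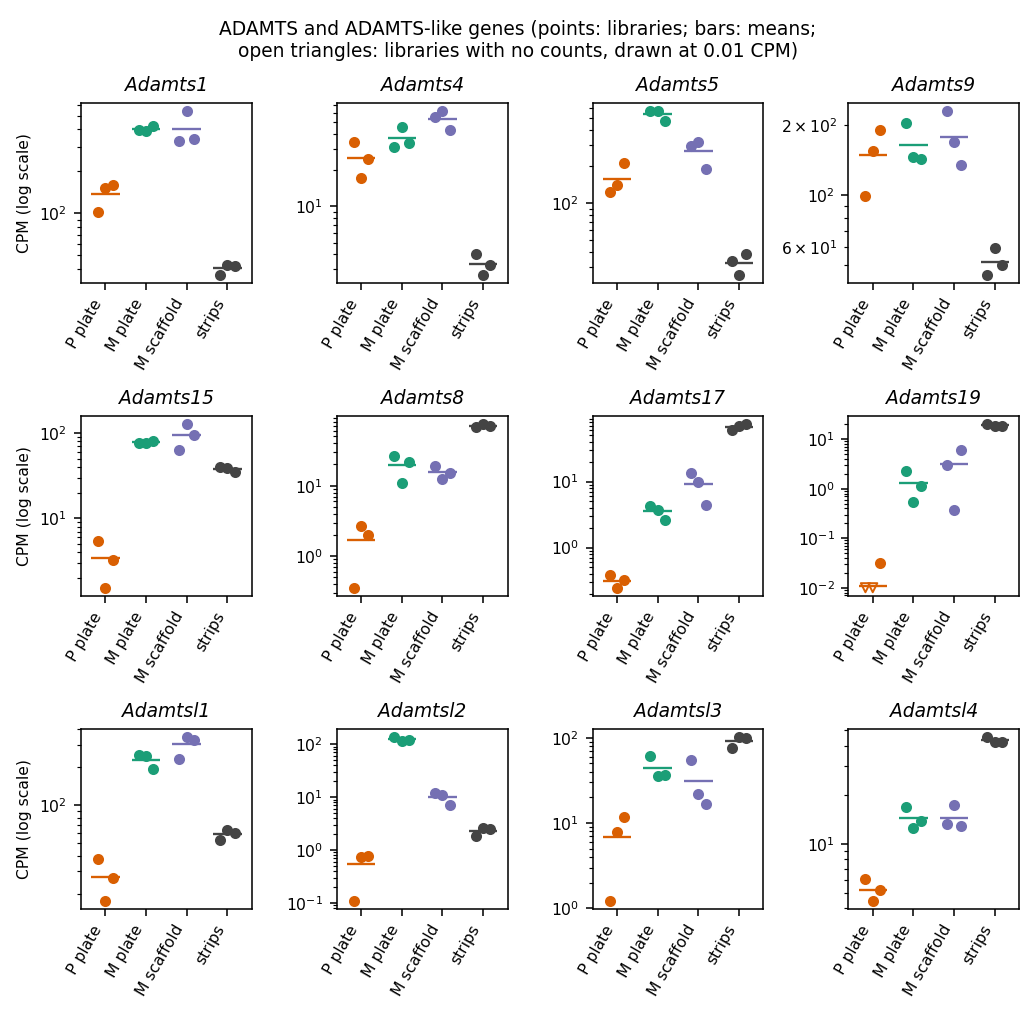
CPM on a log axis of 12 ADAMTS and ADAMTS-like genes, 1 point a library and a bar at each group's mean, with libraries that had no counts drawn as open triangles at 0.01 CPM. Apart from Adamts4 and Adamts9, each gene shown has its M plate libraries above all P plate libraries. Adamts8, Adamts17, Adamts19, Adamtsl3 and Adamtsl4 also have their strip libraries above all culture libraries.

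The procollagen N-proteinases remove the amino-terminal propeptide of fibrillar collagens. Adamts2, the main one, was at 319, 307 and 351 CPM on the P plate and 355, 336 and 359 on the M plate. Adamts2 was at 348, 384 and 747 on the M scaffold and 164, 195 and 206 in the strips. It was above the strips in each culture (0.79 ± 0.25, 0.89 ± 0.25 and 1.39 ± 0.25, adjusted p = 0.0169, 0.0108 and 0.00118). It passed neither between media (0.10 ± 0.25, adjusted p = 0.791) nor on the scaffold (0.49 ± 0.25, adjusted p = 0.278). The P plate call was lost without strips library 1 or P plate library 3 (log2 difference 0.68 to 0.7, adjusted p 0.0553 to 0.0696), and with scaling by library size alone (0.52, adjusted p of 0.0804). The M plate call was lost without strips library 1 (log2 difference 0.78, adjusted p of 0.0516). Adamts3, which also processes the lymphatic growth factor VEGF-C, was at 2.41, 7.5 and 3.28 CPM on the P plate and 21, 13.5 and 9.31 on the M plate. Adamts3 was at 10.3, 6.24 and 7.89 on the M scaffold and 4.08, 2.96 and 4.53 in the strips. It was higher on the M plate than on the P plate (1.73 ± 0.43, adjusted p = 0.0159). The call was lost without M plate library 1 or P plate library 3 (log2 difference 1.37 to 1.56, adjusted p 0.0626 to 0.0695), and in a fit of only the 6 libraries compared (1.73, adjusted p of 0.0709). The difference was 2.35 without P plate library 2. It was also higher on the M plate than in the strips (1.91 ± 0.43, adjusted p = 0.00383). Lymphatic endothelial markers summed to 67.4 to 93.9 CPM on the P plate, 2671 to 3586 on the M plate, 1681, 1234 and 236 on the M scaffold and 38.1 to 47.3 in the strips. Their part in the Adamts3 levels was not tested. Adamts14 was at 17.9, 4.61 and 7.62 CPM on the P plate and 4.99, 4.01 and 8.98 on the M plate. Adamts14 was at 15.4, 23 and 17.1 on the M scaffold and 6.41, 5.88 and 9.56 in the strips. On the scaffold it was 1.68 ± 0.32 above the M plate with the replicate block in 6 libraries (adjusted p = 0.0417) and 1.62 ± 0.47 (adjusted p = 0.0845) without it, where it passed with DESeq2 (1.64, adjusted p = 0.0118). The block in all 12 gave 1.72 ± 0.48, adjusted p = 0.0927, which did not pass. It exceeded the strips there (1.34 ± 0.47, adjusted p = 0.0338). That call was lost without strips library 1, strips library 2, M scaffold library 2 or M scaffold library 3 (log2 difference 1.14 to 1.4, adjusted p 0.0543 to 0.103), and with scaling by library size alone (1.10, adjusted p of 0.0568).

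Adamts7 and Adamts12, which cleave cartilage oligomeric matrix protein, were the ADAMTS genes that fell in M medium. Adamts12 was at 78.3, 64.1 and 91.7 CPM on the P plate and 33.2, 25.9 and 34 on the M plate. Adamts12 was at 22.6, 21.2 and 42.1 on the M scaffold and 12.9, 14.1 and 17.9 in the strips. All P plate libraries lay above all others, and Adamts12 was lower on the M plate (-1.33 ± 0.26, adjusted p = 0.0048). It exceeded the strips by 2.38 ± 0.27, 1.05 ± 0.26 and 0.94 ± 0.26 (adjusted p = 3.66e-05, 0.0063 and 0.0124). The M scaffold call was lost without strips library 1 (log2 difference 0.82, adjusted p of 0.0539). Adamts7 was at 63.9, 126 and 150.1 CPM on the P plate and 35.1, 48.5 and 67.9 on the M plate. Adamts7 was at 49.7, 78.2 and 82.5 on the M scaffold and 33.4, 37 and 36 in the strips. It was lower on the M plate (-1.16 ± 0.32, adjusted p = 0.025). The call was lost without M plate library 1, P plate library 2, M plate library 2 or P plate library 3 (log2 difference -0.91 to -1.14, adjusted p 0.0554 to 0.0954), and in a fit of only the 6 libraries compared (-1.17, adjusted p of 0.0857). It was higher than the strips on the P plate (1.67 ± 0.33, adjusted p = 0.00124) and on the M scaffold (0.98 ± 0.32, adjusted p = 0.0263). The latter was lost without strips library 1, strips library 2, M scaffold library 2, strips library 3 or M scaffold library 3 (log2 difference 0.86 to 1., adjusted p 0.0603 to 0.0817), with upper quartile scaling (0.85, adjusted p of 0.0507), and with scaling by library size alone (0.74, adjusted p of 0.0771).

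Adamts10, Adamts17 and Adamts6 belong to the branch of the family tied to fibrillin microfibrils. Adamts17 had a large range, at 0.383, 0.246 and 0.319 CPM on the P plate and 4.33, 3.71 and 2.58 on the M plate. Adamts17 was at 13.6, 9.82 and 4.39 on the M scaffold and 60.3, 69.2 and 73.9 in the strips. No group overlapped another, though M plate library 1 (4.33) and M scaffold library 3 (4.39) lay close, and the strips were highest. M plate exceeded P plate by 3.46 ± 0.43 (adjusted p = 0.000323), and each culture lay below the strips (-7.73 ± 0.48, -4.27 ± 0.38 and -2.88 ± 0.36, adjusted p = 9.46e-07, 2.04e-05 and 0.000154). The scaffold difference of 1.39 ± 0.35 (adjusted p = 0.0587) did not pass. It passed with the replicate block in 6 libraries (1.29 ± 0.22, adjusted p = 0.0351), with DESeq2 (1.40, adjusted p = 0.00559), with no low-count filter (1.41, adjusted p = 0.0443) and without M scaffold library 3 (1.74, adjusted p = 0.0178), and not with the block in all 12 (1.33 ± 0.31, adjusted p = 0.0673). Adamts10 was at 66.6, 131 and 90.5 CPM on the P plate and 90.6, 85.3 and 104 on the M plate. Adamts10 was at 46.8, 43.2 and 58.4 on the M scaffold and 95.7, 59.3 and 75.7 in the strips. It was lower on the scaffold than on the plate with the replicate block in 6 libraries (-0.91 ± 0.08, adjusted p = 0.0188) and -0.91 ± 0.24 (adjusted p = 0.0681) without it. It did not pass with the block in all 12 (-0.92 ± 0.27, adjusted p = 0.102). Its call below the strips (-0.64 ± 0.24, adjusted p = 0.0484) was lost without strips library 1, M scaffold library 1, M scaffold library 2 or strips library 3 (log2 difference -0.46 to -0.66, adjusted p 0.0856 to 0.171), with limma-voom (-0.62, adjusted p of 0.0532), and with no low-count filter (-0.59, adjusted p of 0.0819). Adamts6 was at 19.5, 6.61 and 19.2 CPM on the P plate and 7.85, 9.8 and 9.99 on the M plate. Adamts6 was at 5.71, 4.69 and 5.31 on the M scaffold and 20.3, 20.7 and 16.5 in the strips. It lay below the strips on the M plate (-1.05 ± 0.33, adjusted p = 0.0196) and the M scaffold (-1.87 ± 0.34, adjusted p = 0.00121). The M plate call was lost without M plate library 1 (log2 difference -0.96, adjusted p of 0.0656). Adamts6 did not pass between media (-0.71 ± 0.33, adjusted p = 0.14), and passed without P plate library 2 (-1.08, adjusted p = 0.00139).

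Adamts19, a gene linked to heart valve structure, was all but absent on the P plate. It was at 0, 0 and 0.0319 CPM on the P plate and 2.24, 0.533 and 1.13 on the M plate. Adamts19 was at 3.01, 0.373 and 6.13 on the M scaffold and 20.1, 18.2 and 18.4 in the strips. There was 1 count in the 3 P plate libraries. From summed counts the M plate to P plate ratio was 125 (95% exact interval 22.1 to 4948). The strips to P plate ratio was 1890 (339 to 74661), and both intervals cover counting error only. The edgeR tests of these pairs gave adjusted p = 0.00716 and 7.29e-05. It was lower than the strips on the M plate (-3.87 ± 0.81, adjusted p = 0.00243) and on the M scaffold (-2.55 ± 0.76, adjusted p = 0.0166). The latter was lost without M scaffold library 1 (log2 difference -2.50, adjusted p of 0.0505) and was -3.47 without M scaffold library 3. The former was -4.49 without M plate library 1. Adamts13, the protease of von Willebrand factor, Adamts16 and Adamts18 reached at most 1.79, 6.18 and 1.29 CPM in any library. Adamts13 was highest in the strips, with a strips to M plate ratio of 89.3 (24.4 to 742), again an interval of counting error only. Adamts16 was higher on the M plate than on the P plate (3.75 ± 0.66, adjusted p = 0.00253), and Adamts18 passed in no comparison.

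ADAMTS-like genes encode matrix proteins without protease activity. Adamtsl2, which binds fibrillin and latent TGF-beta binding protein, had the largest medium difference of any member (ENSMUSG00000036040, chr2:27079379-27108981, plus strand). It was at 0.109, 0.738 and 0.765 CPM on the P plate and 136, 117 and 120.0 on the M plate. Adamtsl2 was at 12.2, 10.8 and 7 on the M scaffold and 1.81, 2.63 and 2.46 in the strips. All M plate libraries exceeded 100 CPM, the M scaffold stood between 7 and 12.2 CPM, and no M plate or M scaffold library overlapped another group. M plate exceeded P plate by 7.87 ± 0.52 (adjusted p = 1.37e-05) and M scaffold was below M plate (-3.64 ± 0.41, adjusted p = 0.00845), with -3.67 ± 0.17 (adjusted p = 0.0164) under the replicate block in 6 libraries. No single-library omission and no other tool or scaling tried ended either call. Against the strips it differed by -2.11 ± 0.46, 5.76 ± 0.46 and 2.12 ± 0.40 (adjusted p = 0.00237, 1.13e-05 and 0.00154), below them on the P plate and above them in M medium.

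Since Adamtsl2 carries the largest difference between media among the members, the 100 bases before its RefSeq start (GRCm38.p6, chr2:27079279-27079378, plus strand) are given with TATAAA in capitals, whose first base lies 30 bases before the start. The TGANTCA letters are not in its window.
Adamtsl2: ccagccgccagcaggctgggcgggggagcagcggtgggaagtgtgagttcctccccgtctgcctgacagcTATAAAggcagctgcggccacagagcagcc

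Adamtsl1 (punctin) was at 37.7, 17.6 and 26.6 CPM on the P plate and 251, 243 and 195 on the M plate. Adamtsl1 was at 233, 345 and 329.8 on the M scaffold and 53.4, 64 and 59.8 in the strips. All M medium libraries lay above all P plate and strip libraries. It rose by 3.07 ± 0.27 (adjusted p = 4.83e-05) from P plate to M plate and did not pass on the scaffold (0.40 ± 0.25, adjusted p = 0.388). Adamtsl3 was at 1.23, 7.84 and 11.7 CPM on the P plate and 60.3, 35.3 and 37 on the M plate. Adamtsl3 was at 54.2, 22.2 and 16.8 on the M scaffold and 75.3, 101 and 98.9 in the strips. It was higher on the M plate than on the P plate by 2.67 ± 0.68 (adjusted p = 0.0166). That call was lost without M plate library 1 (log2 difference 2.38, adjusted p of 0.0574), and in a fit of only the 6 libraries compared (2.67, adjusted p of 0.0617). It was 3.29 without P plate library 3. Adamtsl3 was below the strips on the P plate (-3.73 ± 0.70, adjusted p = 0.000974, and -4.37 without P plate library 3), and did not pass on the M plate (-1.06 ± 0.63, adjusted p = 0.18) or the M scaffold (-1.57 ± 0.64, adjusted p = 0.0621). The M scaffold value against the strips passed with DESeq2 (-1.58, adjusted p = 0.0261), with limma-voom (-1.81, adjusted p = 0.00927) and without M scaffold library 1 (-2.23, adjusted p = 0.0258). Adamtsl4, a fibrillin-binding protein of the lens zonule and other microfibrils, was at 6.05, 4.46 and 5.17 CPM on the P plate and 16.9, 12.4 and 13.8 on the M plate. Adamtsl4 was at 13.3, 17.3 and 12.9 on the M scaffold and 45.2, 42.3 and 42.4 in the strips. Its groups did not overlap apart from the M plate and M scaffold. M plate was above P plate (1.46 ± 0.17, adjusted p = 0.0002) and the strips above each culture (-3.05 ± 0.18, -1.59 ± 0.17 and -1.58 ± 0.17, adjusted p = 6.88e-07, 4.25e-05 and 6.22e-05). Adamtsl5 was at 35.3, 49.95 and 36 CPM on the P plate and 29.7, 28.6 and 28.7 on the M plate. Adamtsl5 was at 30.4, 39.6 and 44.3 on the M scaffold and 25.6, 23.1 and 21.5 in the strips. It was higher than the strips on the P plate (0.79 ± 0.17, adjusted p = 0.00197) and M scaffold (0.70 ± 0.17, adjusted p = 0.00526). Its medium difference of -0.48 ± 0.17 (adjusted p = 0.0586) passed with DESeq2 (-0.48, adjusted p = 0.0312) and without P plate library 1 (-0.57, adjusted p = 0.0361).

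The ADAMTS and ADAMTS-like genes that rose in M medium did so beside differences in the markers of several cell types. All 6 endothelial markers were higher on the M plate than on the P plate, and on the M scaffold their sum ran from 191 CPM in library 3 to 1406 CPM in library 1. Adamtsl1 was at 329.8 CPM and Adamts15 at 96.1 CPM in M scaffold library 3, the library with the lowest endothelial sum in M medium, against 233 and 63.8 CPM in library 1. Adamtsl3 was at 16.8 CPM and Adamts5 at 191 CPM in library 3, against 54.2 and 294 CPM in library 1. Between media, 3 of 4 lymphatic endothelial markers, 4 of 5 fibroblast markers, all 4 of enteric glia, 2 of 4 of enteric neurons and both of interstitial cells of Cajal were also higher on the M plate. Of 7 smooth muscle markers 3 were lower there, and no macrophage or mesothelial marker passed. Over all genes tested, 14.3% were called higher on the M plate than on the P plate and 10.6% lower. The fibroblast sum was 566, 1599 and 1081 CPM on the P plate, 1483, 1972 and 1862 on the M plate, 1772, 2995 and 1383 on the M scaffold and 1019 to 1028 in the strips. The part of any of these cell types in the levels of the members was not tested.

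Timp1, the inhibitor that binds most MMPs but membrane-type ones poorly, is an X-linked gene (ENSMUSG00000001131, chrX:20870166-20874735, plus strand). It was at 1019.5, 385 and 1338 CPM on the P plate and 148, 234 and 161 on the M plate. Timp1 was at 103, 137 and 289 on the M scaffold and 14.1, 13.9 and 10.9 in the strips. All P plate libraries lay above all others, M plate and M scaffold overlapped, and the strips were lowest. Timp1 was lower on the M plate than on the P plate (-2.34 ± 0.48, adjusted p = 0.00564) and did not pass on the scaffold (-0.04 ± 0.45, adjusted p = 0.976). Against the strips it differed by 6.14 ± 0.57, 3.80 ± 0.51 and 3.77 ± 0.51 (adjusted p = 9.14e-06, 0.000173 and 0.000243).

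Timp2, which inhibits MMPs and also takes part in pro-Mmp2 activation by Mmp14, was at 1846, 2122 and 1664 CPM on the P plate and 1430.3, 1365 and 1631 on the M plate. Timp2 was at 1654, 2432 and 1762 on the M scaffold and 590.2, 664 and 690.3 in the strips. Each culture was above the strips (1.53 ± 0.19, 1.19 ± 0.18 and 1.59 ± 0.19, adjusted p = 5.49e-05, 0.00041 and 0.000112), and it passed neither between media (-0.35 ± 0.18, adjusted p = 0.191) nor on the scaffold (0.40 ± 0.18, adjusted p = 0.236). Timp3 binds to the matrix and also inhibits several ADAMTS enzymes, and it was at 944, 3972 and 3618 CPM on the P plate and 1522, 1189 and 1285 on the M plate. Timp3 was at 661, 429 and 665 on the M scaffold and 218, 241 and 257 in the strips. P plate library 1 was far below the other P plate libraries, and all M scaffold libraries lay below all M plate libraries. The medium difference of -1.09 ± 0.42 (adjusted p = 0.0843) did not pass, but was -1.51 (adjusted p = 0.000636) without P plate library 1 and -1.08 (adjusted p = 0.0351) with DESeq2. On the scaffold it was -1.19 ± 0.42 (adjusted p = 0.143), which passed with the replicate block in 6 libraries (-1.20 ± 0.15, adjusted p = 0.0237), in those libraries without the block (-1.18, adjusted p = 0.0334) and with DESeq2 (-1.18, adjusted p = 0.0474). With the block in all 12 libraries it did not pass (-1.20 ± 0.45, adjusted p = 0.18). Timp3 was higher than the strips by 3.58 ± 0.46, 2.48 ± 0.44 and 1.29 ± 0.42 (adjusted p = 8.32e-05, 0.000911 and 0.026). The M scaffold call was lost without strips library 1, M scaffold library 1, strips library 2, strips library 3 or M scaffold library 3 (log2 difference 1.2 to 1.34, adjusted p 0.0614 to 0.0838), and with scaling by library size alone (1.06, adjusted p of 0.0632). Its exons overlap Syn3 on the opposite strand over 21.28% of their bases. Timp4 reached at most 0.963 CPM in any library, with a medium difference of 2.39 ± 0.75 (adjusted p = 0.0417).

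Summed over the genes per kb of exon, the TIMP level was 1861 ± 468 CPM per kb on the P plate, 746 ± 22 on the M plate, 771 ± 130 on the M scaffold and 210.3 ± 14.2 in the strips (SD, n = 3). The MMP level was 812 ± 155, 399 ± 61, 894 ± 344 and 155 ± 10.3. The ratio of the summed TIMP to the summed MMP level was thus 2.31 ± 0.50 on the P plate (1.75 to 2.69), 1.89 ± 0.25 on the M plate (1.61 to 2.07), 0.912 ± 0.208 on the M scaffold (0.673 to 1.05) and 1.36 ± 0.09 in the strips (1.30 to 1.46). The M scaffold range lay below those of the 3 other groups, and this ratio was not tested. It weighs all inhibitors and proteases alike and is a description of messenger RNA. Timp1 made up 53.0% ± 20.3 of the TIMP level on the P plate, 27.2% ± 6.4 on the M plate, 25.0% ± 11.1 on the M scaffold and 7.01% ± 1.32 in the strips, where Timp2 made up 79.0% ± 1.1. The summed ADAMTS level was 133 ± 21, 222 ± 4.7, 218 ± 26 and 85.8 ± 3.5 CPM per kb, and that of ADAMTS-like genes 12.9 ± 1.1, 48.9 ± 5.4, 40.5 ± 3.8 and 32.0 ± 1.6.

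**Figure D5:**
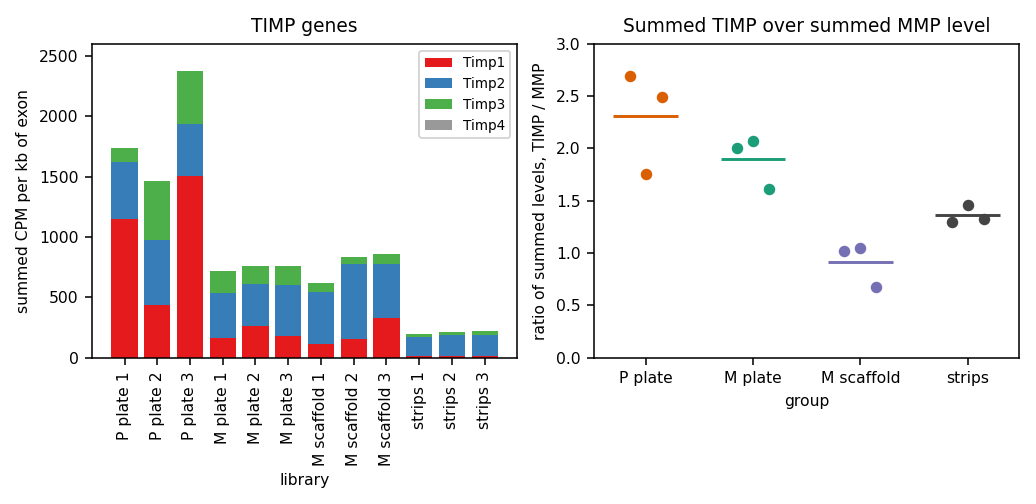
Left, CPM per kb of exon of the 4 TIMP genes stacked in each library; right, the ratio of the summed TIMP to the summed MMP level per library with a bar at each group's mean. Timp1 makes up a mean of 53.0% of the P plate columns and 7.01% of the strip columns, and the 3 M scaffold ratios (0.673 to 1.05) lie below those of every other group.

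Other genes of the pathway were read from lists, beside the shares of all genes. Of 13 tested activators and regulators, 2 were higher and 2 lower on the M plate than on the P plate (all genes: 14.3% and 10.6%), which is close to the background. On the scaffold 1 was higher (all genes: 1.53%). Against the strips 9, 11 and 9 were higher on the P plate, M plate and M scaffold (all genes: 30.5%, 26.5% and 24.5%) and the others did not pass. Plau, urokinase, which starts the plasmin cascade that activates pro-MMPs, was at 292, 384 and 296 CPM on the P plate and 277, 327 and 381 on the M plate. Plau was at 316, 359 and 275 on the M scaffold and 11.8, 34.4 and 10.2 in the strips. It led that list against the strips in each culture, by 4.11 ± 0.43 (adjusted p = 2.16e-05) on the P plate. Plaur, the urokinase receptor, was lower on the M plate (-1.61 ± 0.17, adjusted p = 0.00012), at 21.7, 25.2 and 24.3 CPM against 71.7, 65 and 80.6 on the P plate. Plat, tissue plasminogen activator, was the 1 called on the scaffold (0.94 ± 0.17, adjusted p = 0.0252), at 210.1, 199 and 207 CPM against 104, 93.7 and 124 on the M plate.

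Of 10 other protease inhibitors and regulators, 6 were higher and 1 lower on the M plate (all genes: 14.3% and 10.6%), and 1 was higher on the scaffold (all genes: 1.53%). A2m, a broad trap of proteases that includes MMPs and ADAMTS enzymes among its targets, was the 1 that rose on the scaffold, from 105, 89.7 and 103 CPM to 761, 1100.1 and 1401 (3.45 ± 0.28, adjusted p = 0.00259). It was at 0.931, 1.21 and 1.26 CPM in the strips. Against the strips 4, 4 and 5 of the list were higher (all genes: 30.5%, 26.5% and 24.5%) and 4, 2 and 2 lower (all genes: 32.7%, 28.4% and 27.6%). The largest fall was that of Spock3, a proteoglycan of the testican family, in each culture.

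Of 13 tested ADAM and astacin proteases, 1 was higher and 3 lower on the M plate than on the P plate (all genes: 14.3% and 10.6%), with Adam8 at 884, 152 and 133 CPM on the P plate and 58.3, 72 and 108 on the M plate (-2.29 ± 0.69, adjusted p = 0.0338). On the scaffold only Adam33 passed, with -0.88 ± 0.19 (adjusted p = 0.0409) (all genes called lower: 1.64%). Against the strips 7, 6 and 6 were higher (all genes: 30.5%, 26.5% and 24.5%) and 5 of the list lower in each comparison (all genes: 32.7%, 28.4% and 27.6%). Of 12 tested substrates, 4 were higher and 1 lower on the M plate (all genes: 14.3% and 10.6%), and all 12 failed the test on the scaffold (all genes called: 1.53% higher and 1.64% lower). Eln, elastin, was at 30.7, 893 and 351 CPM on the P plate, 3383, 2745 and 3035 on the M plate, 269, 192 and 352 on the M scaffold and 852, 816 and 1168 in the strips, and rose by 2.85 ± 0.83 (adjusted p = 0.0304) between media. Fn1, fibronectin, exceeded the strips by 4.63 ± 0.48 (adjusted p = 1.94e-05) on the P plate, and Ncan, the brain proteoglycan neurocan, was highest in the strips at 10.2, 12.2 and 12.9 CPM.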

How the data were processed

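Total RNA of 12 mouse samples (4 groups of 3) was extracted by Qiashredder and RNeasy and made into TruSeq RNA v2 libraries, per the labels' protocols. The authors deposited a table of counts of reads per Ensembl gene; STAR 2.6.0 and the build GRCm38 (mm10) are named in the submitters' processing notes, while the sources used here do not name the counting tool, its annotation or its use of strand. The series text describes 3 biologically independent replicates and 2 technical replicates a sample, and how the technical replicates were joined is not given. The p-values rest on the spread between samples of the same group, with an estimate that all 4 groups share. Rows that name no gene stayed out of totals and tests. Reads with no feature came to 4.20% to 7.87% of the sum of reads in genes, with no feature and ambiguous. Symbols and exon lengths came from GENCODE M21, where 52403 of 52550 IDs matched, and promoters from RefSeq (GRCm38.p6), where 36 of 51 members matched.

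Counts were tested in R 4.3.3 with edgeR 4.0.16 (filterByExpr by group, TMM, glmQLFit and glmQLFTest, 12 libraries, group as the only term, 8 residual degrees of freedom), and p-values were adjusted by Benjamini-Hochberg over 17700 genes. Alternatives were DESeq2 1.42.0, limma-voom (limma 3.58.1), other scalings and low-count filters, a replicate block, the 6 libraries of a comparison alone, and leaving out each library. The script was tested on simulated data. The members and all gene lists were chosen with earlier results of these data known. Members that passed in any of the 5 comparisons and averaged 10 CPM or more in some group (38 genes) are given by library, the others by range, and from other lists the called gene with the largest change in each direction. Same-numbered libraries of the M scaffold and M plate deviated together (r across genes 0.196 to 0.304, each highest for its own number), which is taken as pairing from the data, as the labels state no shared source. In the other comparisons r was -0.0808 to 0.0857. Some named genes of the lists are not reported here.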

Additional observations from a re-analysis of the deposited data

How the results depend on the processing

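With 3 libraries a group, calls near the threshold turn on single libraries. Of 121 calls of the members given by library, 90 kept direction and passed in every alternative fit that tested the gene. The cause of the others' loss was not tested. Calls of the members given by range were not followed in this way. Low members (Mmp8, Mmp27, Adamts13, Adamts19) are limited by counts in their low group.

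M plate against P plate had 19 members higher and 8 lower. A fit of only the 6 libraries compared gave 15 and 4 (all genes: 1730 and 1116 of 16322, against 2532 and 1868 of 17700). Leaving out 1 library gave 15 to 21 higher and 3 to 9 lower, with 3 lower without M plate library 1 and 4 without M plate library 2. Over all genes the fits without 1 library called 1818 to 2975 higher and 812 to 2213 lower. M scaffold against M plate had 2 higher and 1 lower, DESeq2 gave 10 and 5, limma-voom 3 and 3, no low-count filter 4 and 1, and only the 6 libraries 3 and 6. Leaving out 1 library gave 0 to 4 higher and 1 lower each time. Over all genes, this comparison called 271 higher and 291 lower, but 1146 and 873 with DESeq2 and 7 and 11 without M plate library 2. Limma-voom called 459 and 545 of all genes, no low-count filter 293 and 221, and only the 6 libraries 455 and 613. Leave-one-out counts were 21 to 22 higher and 14 to 18 lower for P plate against strips (22 and 16), 21 to 24 and 8 to 9 for M plate (25 and 9), and 24 to 28 and 8 to 9 for M scaffold (28 and 9). Over all genes they were 4622 to 5192 and 5441 to 6187, 3747 to 4128 and 4422 to 4802, and 3382 to 4100 and 4324 to 4594.

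The replicate block in the 6 libraries of M plate against P plate gave 10 members higher and 2 lower, while in all 12 libraries it gave 18 and 8. Over all genes the block called 942 higher and 358 lower of 16322 in the 6 libraries, and 2430 and 1658 of 17700 in all 12. Same-numbered libraries do not deviate together there, so the numbers are not taken as pairs. In M scaffold against M plate, where they are, the block in 6 libraries gave 10 higher and 4 lower, and in all 12 it gave 3 and 1. These fits called 787 and 931 of all 16354 genes, and 222 and 169 of all 17700. In the strip comparisons the block in 6 libraries gave 21 and 15 for the P plate, 27 and 10 for the M plate and 30 and 10 for the M scaffold. Over all genes it called 3374 and 4554 of 16919, 5633 and 5631 of 17402, and 3775 and 4400 of 16891.

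Scaling moved the strip comparisons over all genes: P plate against strips called 5390 higher and 5785 lower, and 3669 and 7304 with library size alone. M plate went from 4687 and 5025 to 3327 and 6492, and M scaffold from 4344 and 4884 to 2919 and 6551. Direction reversed with a call in 1 case: Mmp28 on the P plate against strips was 0.08 (adjusted p = 0.893) and -0.87 (adjusted p = 0.018) without P plate library 1 (0.47 without P plate library 2).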
